A study of Mus musculus with 6 samples.

Results

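Of the 10708 genes that carry an open chromatin peak in these mouse livers, 228 are Zfp genes, taken as every gene whose symbol in the deposited peak annotation begins with Zfp and a digit. They hold 312 of the 22412 peaks. Each gene is given by its main peak, the one with the highest mean read count, and peaks at promoters or 5' UTRs are set beside intronic ones. The symbol is a naming rule and not a protein family, yet the annotation assigns 201 of the 228 genes to the C2H2 zinc finger transcription factors and 2 to the CCCH zinc finger proteins. For 127 genes it gives the orthology group of KRAB zinc finger proteins, and KRAB genes or the KRAB group below mean these. The KRAB domain itself was not checked, so genes outside the group may encode it.

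Open chromatin was profiled with ATAC-seq: a transposase inserts adapters where the DNA of isolated nuclei is exposed. The 3 control samples were livers with an adenovirus for EGFP, a fluorescent protein, and the 3 Dyrk1b samples were livers with an adenovirus that overexpresses the kinase Dyrk1b. Every liver thus carried an adenovirus. Strain, sex, age, dose, time after infection and the promoter that drives the transgene are not given in the labels. Nor do they state whether a group's samples came from different mice, and the p-values therefore cover the spread among these 6 samples only, part of which may be technical. Whole liver was used, so fewer cells of a type and less open chromatin per cell cannot be told apart.

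A C2H2 zinc finger folds around a zinc ion and reads a few bases of DNA, and proteins with many fingers in a row bind long sites. The KRAB class is the largest group of such proteins in mammals. Its KRAB domain recruits the corepressor Trim28, which brings the histone methyltransferase Setdb1 and the heterochromatin proteins of the Cbx family, and many members silence retroelements. These genes arose by tandem duplication and lie in clusters, while other Zfp genes act outside this pathway, among them the Zfp36 group, which binds AU-rich elements in mRNA and speeds its decay.

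Promoter sequences of the Zfp genes were read from RefSeq (GRCm38.p6), 250 bases before to 50 bases after the gene start, with 1 promoter per gene. Of the 140 genes whose main peak was a promoter or 5' UTR peak, 121 were matched. The sequence ACTACAA, a part of a longer site of ZNF143 (the human protein of Zfp143), was found on either strand in 14 of these 121 promoters, or 11.6%. It was present in 5.17% of the promoters of 3829 other genes with such a main peak and in 3.45% of all 27025 promoters. All 14 genes belonged to the KRAB group, where the share was 17.7% of 79, against 0 of the 42 other Zfp promoters. The rest of the ZNF143 site was not searched. A match describes the letters and is no evidence of binding.

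Of these promoters 8 are shown because their matches share flanking letters, 5' to 3' on the strand of the gene, with the match in capitals (TTGTAGT is ACTACAA read on the opposite strand). The coordinates are those of GRCm38.p6.
Zfp1, chr8:111643411-111643440, plus strand: cattatgggaaTTGTAGTcctacacctcag
Zfp93, chr7:24270340-24270369, plus strand: aattctgggaaTTGTAGTtccaacgccagt
Zfp108, chr7:24254720-24254749, plus strand: cattctgggaaTTGTAGTtctggagccatt
Zfp128, chr7:12881148-12881177, plus strand: gcgcgtggccttctgggaaTTGTAGTctca
Zfp180, chr7:24081867-24081896, plus strand: gagttctgggaaTTGTAGTtccattgagct
Zfp58, chr13:67500530-67500559, minus strand: acttgtgggaaTTGTAGTctggccactgtg
Zfp169, chr13:48513490-48513519, minus strand: cattctgggtaTTGTAGTtcccccatctct
Zfp454, chr11:50887654-50887683, minus strand: ccttctgggaaTTGTAGTttcggccacaaa

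The match lay on the strand opposite the gene in 11 of the 14 promoters and within 75 bases before the start in 9. None of the 14 matches overlapped another motif searched. Their main peaks had a median log2 change (Dyrk1b against control) of 0.18, with 8 positive and 6 negative values between -0.89 (Zfp93) and 0.71 (Zfp108). The 14 genes therefore did not share a direction. Zfp143 itself, named outside the rule for its site, has an intronic main peak, which read 61.0, 62.0 and 44.4 CPM (read counts per peak over the library's sum in peaks, after TMM normalisation) in controls 1 to 3 and 55.7, 74.98 and 51.5 in Dyrk1b 1 to 3. Its log2 change was 0.11 ± 0.25 (SE), and the groups overlapped.

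Other motifs were sought on both strands of the same promoters, overlaps allowed. GGGCGG, the GC box of SP and KLF factors, was in 52.1% of the Zfp promoters with a peak, 70.0% of those of other genes and 35.9% of all promoters. CCGGAA, the ETS site, was in 38.0%, 31.1% and 15.2%, and among the Zfp promoters in 43.0% of the KRAB group and 28.6% of the rest. CCAAT, the NF-Y box, was in 41.3%, 37.0% and 37.9%. AAGATGG, the YY1 site, was in 7.44%, 7.0% and 6.48%. CACGTG, the E-box, was in 5.79%, 9.32% and 7.24%. GCATGCGC, the NRF1 site, was in 5.79%, 5.85% and 2.81%, TGACGTCA, the cAMP response element, in 2.48%, 2.69% and 1.88%, and TATAAA, the TATA box, in 8.26%, 6.24% and 14.2%. The Zfp promoters with a peak were less rich in G and C, with a median of 55.3% against 62% in other genes with such a peak. Their median number of CG pairs was 16 against 22, with 12 in the KRAB group and 20 in the other Zfp genes. These shares are descriptions and were not tested.

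Control libraries held 762633 to 855787 reads in peaks and Dyrk1b libraries 768418 to 1267934, with a median of 26 to 47 reads per peak. Of the library totals that the RPKM values imply, reads in these peaks were 1.89% to 2.22% in controls and 1.67% to 2.63% with Dyrk1b. Of the hepatocyte markers 6 of 10 had a peak, Alb, Apoa1 and Hnf4a among them, with 1 positive and 5 negative log2 changes, a median of -0.32 and summed levels of 268.5 to 379.9 CPM in controls and 276.4 to 292.2 CPM with Dyrk1b. Of 27 markers of endothelial cells, macrophages, stellate cells, cholangiocytes, B cells and T cells, 7 had a peak, with 4 positive and 3 negative changes, a median of 0.44 and sums of 256.3 to 337.4 CPM against 256.1 to 319.4 CPM. No cholangiocyte marker has a peak in the table. The part of cell makeup in the results below was not tested.

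Of the 228 main peaks, 59 were promoter peaks, 81 lay in a 5' UTR, 73 in an intron and 15 elsewhere. Main peaks of Zfp genes had a median of 75.5 CPM per kb of peak (mean over the 6 libraries), against 81.6 in the other genes. At promoters and 5' UTRs the medians were 76.7 and 85.6 CPM per kb, and in introns 73.4 and 76.9. Within the Zfp genes, KRAB genes had lower levels per kb than the rest, 70.9 against 86.6 at promoters and 5' UTRs and 67.5 against 80.3 in introns. Clustered genes had a median of 71.8 and single genes of 78.9, and 84 of the 127 KRAB genes were clustered against 18 of the 101 others. At promoters and 5' UTRs the medians of clustered and single genes were 72.3 and 80.4, and in introns 68.2 and 75.5. These levels were compared without a test.

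**Figure D1:**
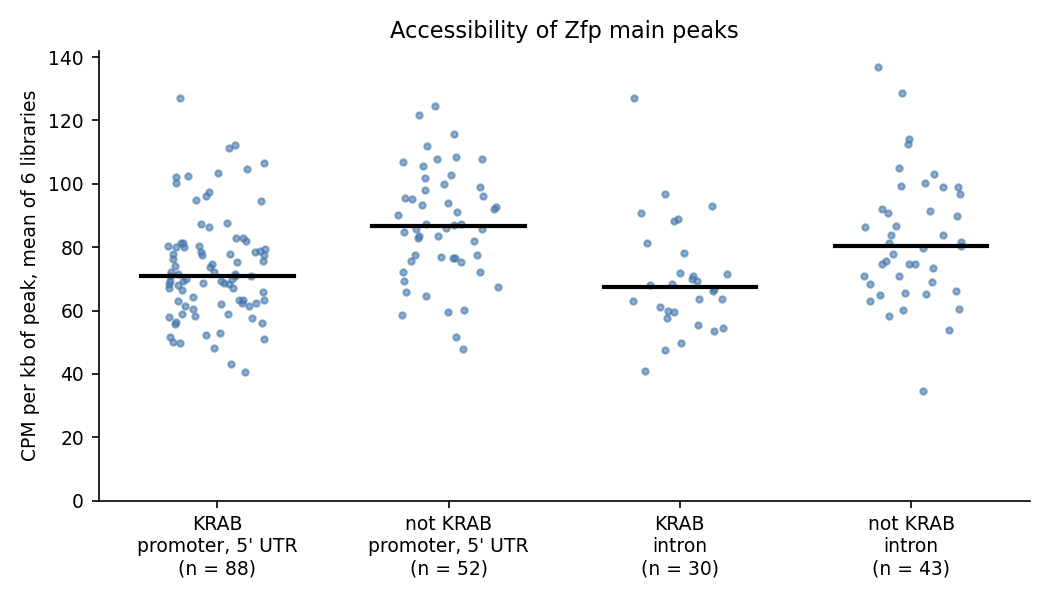
Accessibility of the main peak of each Zfp gene in CPM per kb of peak (vertical axis, mean over 6 libraries), by KRAB group and position class; each point is a gene and the black line is the median. At promoters and 5' UTRs the KRAB median is 70.9 and that of the other Zfp genes 86.6.

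The highest level per kb of all main peaks was at Zfp36, downstream of the gene, with 212 CPM per kb. Among promoter and 5' UTR main peaks the highest were Zfp78 (127), Zfp41 (125), Zfp787 (122) and Zfp142 (116 CPM per kb), and among intronic ones Zfp598 (137), Zfp385a (129) and Zfp46 (127). Zfp598 encodes the ubiquitin ligase that senses collided ribosomes, and Zfp385a a partner of p53. The Zfp41 promoter read 78.6, 65.6 and 131.8 CPM in controls and 102.2, 118.0 and 113.6 with Dyrk1b, with a log2 change of 0.29 ± 0.22 and overlapping groups. Zfp142 (-0.17 ± 0.21), Zfp46 (-0.14 ± 0.20), Zfp385a (0.025 ± 0.23) and Zfp598 (-0.49 ± 0.33) overlapped between the groups as well.

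To ask which Zfp peaks differed with Dyrk1b, counts were tested with edgeR's quasi-likelihood test over all 22051 peaks that passed the filter on low counts. It kept 306 Zfp peaks and 226 main peaks. The 6 Zfp peaks removed were intronic, with mean counts of 7.33 to 9.67 reads, at Zfp13, Zfp148, Zfp277, Zfp422, Zfp605 and Zfp638. For Zfp277 and Zfp605 this was the main peak.

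No Zfp peak passed a Benjamini-Hochberg adjusted p of 0.05: 0 of 306, where 0.0317% of all peaks passed. The lowest adjusted p was 0.150, at the Zfp444 promoter. DESeq2 and limma called 0 Zfp peaks too, though DESeq2 gave no adjusted p for 222 of them. At an unadjusted p under 0.05, 10 Zfp peaks (3.27%) were higher with Dyrk1b, where 6.44% of all peaks were. At the same threshold 28 (9.15%) were lower, where 7.72% of all peaks were. In 21 Zfp peaks (6.86%) every Dyrk1b library lay above every control, against 9.53% of all peaks, and in 33 (10.8%) every Dyrk1b library lay below, against 9.97%. Among main peaks the counts at unadjusted p under 0.05 were 7 higher (3.10%) and 24 lower (10.6%), and 5.19% and 8.87% among the 10386 tested main peaks of other genes. The excess of lower over higher Zfp peaks rests on the scaling. With the library totals behind the RPKM values 12 Zfp peaks (3.92%) were higher at that threshold, against 7.56% of all peaks, and 6 (1.96%) were lower, against 1.13%. In the authors' deposited table the lowest FDR of a Zfp peak was 0.372. At a deposited p-value under 0.05, 12 Zfp peaks had a positive log2 ratio there and 9 a negative one. The median deposited log2 ratio was 0.094 over the Zfp peaks and 0.168 over all peaks.

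The 8 main peaks lower with Dyrk1b that are named here had the lowest p among those whose groups did not overlap, and they lay at promoters, in introns and, in 1 gene, in the 5' UTR. Zfp444 (chromosome 7, 6174823 to 6175356) has a promoter peak of 69.2, 51.0 and 79.3 CPM in controls 1 to 3 and 33.2, 35.3 and 37.6 in Dyrk1b 1 to 3. All Dyrk1b libraries were below all controls, with a log2 change of -0.90 ± 0.27 (adjusted p = 0.150). Zfp292 (chromosome 4, 34882920 to 34883353) has a promoter peak of 42.2, 38.9 and 53.8 CPM in controls and 15.9, 30.9 and 17.7 with Dyrk1b. Again the groups did not overlap, and the log2 change was -1.06 ± 0.34 (adjusted p = 0.175). Zfp869, a KRAB gene on chromosome 8, read 90.3, 110.5 and 83.4 CPM at its 5' UTR in controls and 79.6, 62.9 and 35.3 with Dyrk1b. Its log2 change was -0.72 ± 0.24 (adjusted p = 0.196), with Dyrk1b 3 the lowest library.

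The intronic peaks of Zfp395, Zfp524 and Zfp362 belonged to genes outside the KRAB group. The peak of Zfp395, in intron 1 of 2 and 16.5 kb from the gene start, read 77.4, 85.0 and 78.0 CPM in controls and 46.5, 50.7 and 46.8 with Dyrk1b. The groups did not overlap, with a log2 change of -0.74 ± 0.24 (adjusted p = 0.186). The other 3 intronic peaks of Zfp395 had positive values of 0.15 to 0.35 with overlapping groups. The peak of Zfp524 (5017178 to 5018612) is annotated to intron 1 but covers the deposited gene start, 5017414. It read 186.4, 159.1 and 158.6 CPM in controls and 119.4, 113.6 and 116.7 with Dyrk1b, with a log2 change of -0.53 ± 0.20 (adjusted p = 0.246). Zfp362 had -0.79 ± 0.32, with Dyrk1b 2 at 13.2 CPM and the other Dyrk1b libraries at 34.5 and 34.6. The promoter of Zfp78, a KRAB gene, read 219.3, 185.9 and 212.4 CPM in controls and 123.4, 159.9 and 155.9 with Dyrk1b, with a log2 change of -0.49 ± 0.20. These groups did not overlap either.

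Of the 8 main peaks chosen for a higher level 4 were intronic, 3 lay in a 5' UTR and 1 in an exon. Zfp523 encodes a close relative of Zfp143, and its peak in intron 1 of 13 (chromosome 17, 28404172 to 28404715) read 34.0, 35.2 and 16.1 CPM in controls and 57.1, 52.9 and 47.6 with Dyrk1b. The groups were apart, with a log2 change of 0.86 ± 0.30 (adjusted p = 0.213). Zfp286, a KRAB gene, read 44.6, 41.3 and 33.6 CPM in controls and 51.8, 71.7 and 66.8 with Dyrk1b, with a log2 change of 0.67 ± 0.26 (adjusted p = 0.255). Zfp473, which acts in the 3' end processing of histone mRNA, read 24.6, 19.4 and 18.8 CPM in controls and 41.1, 40.8 and 33.02 with Dyrk1b. Its log2 change was 0.85 ± 0.35 (adjusted p = 0.270), and no control reached a Dyrk1b library.

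The KRAB gene Zfp607a read 57.5, 35.2 and 65.9 CPM at its 5' UTR in controls and 79.6, 73.9 and 79.9 with Dyrk1b, with a log2 change of 0.56 ± 0.25. The remaining main peaks chosen for a higher level were Zfp800 (0.64 ± 0.28), Zfp236 (0.52 ± 0.28), Zfp541 (0.82 ± 0.46), a meiotic chromatin protein, and Zfp101 (0.65 ± 0.41), all with groups that did not overlap. Zfp236, Zfp541 and Zfp101 were not at an unadjusted p under 0.05 (0.068, 0.082 and 0.113 in the quasi-likelihood test). At Zfp541 and Zfp101 the controls read 8.50 to 22.3 CPM, so few reads lie behind these values.

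**Figure D2:**
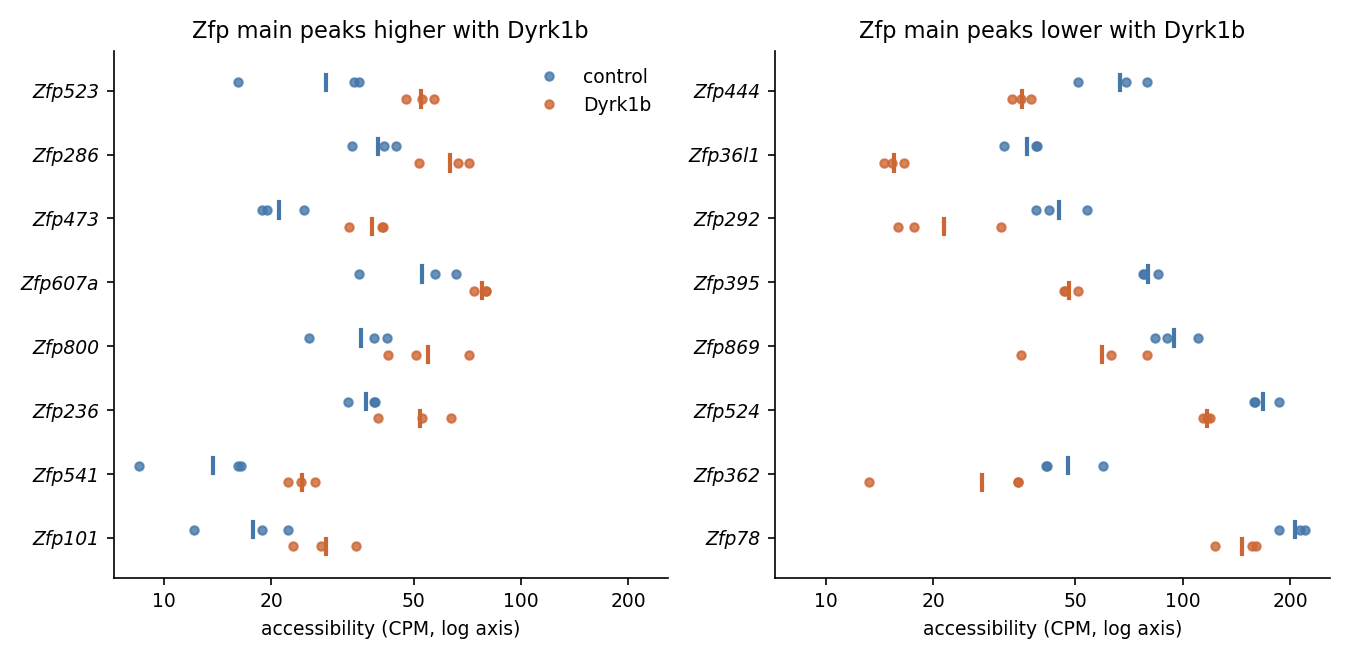
CPM of each library (log axis) at the 8 Zfp main peaks higher and the 8 lower with Dyrk1b that had the lowest unadjusted p among those whose groups did not overlap; points are libraries and bars are group means. The genes were chosen for this separation. Zfp444 controls read 51.0 to 79.3 and Dyrk1b libraries 33.2 to 37.6. None of the 16 passed the adjusted threshold, and Zfp236, Zfp541 and Zfp101 were not at an unadjusted p under 0.05.

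The Zfp36 group of mRNA decay factors had 3 genes with a peak, and all 3 main peaks had negative log2 changes, with a median of -0.54. Of all tested Zfp main peaks 57.5% were negative, and of those of other genes 55%. The peaks of Zfp36 and Zfp36l2 lie downstream, 3.44 and 4.06 kb from the start of the gene they are annotated to, and the nearest start is that of another gene, so to which gene they belong was not tested. The summed level of the 3 peaks was 162.7 to 187.1 CPM in controls and 113.6 to 132.1 CPM with Dyrk1b. Zfp36l1, in its only intron (chromosome 12, 80157958 to 80158277), read 31.7, 38.9 and 39.0 CPM in controls and 14.6, 16.5 and 15.4 with Dyrk1b. The Dyrk1b values were below all controls, with a log2 change of -1.23 ± 0.38 (adjusted p = 0.166). Zfp36, or tristetraprolin, read 72.7, 65.6 and 59.2 CPM in controls and 43.8, 41.9 and 49.1 with Dyrk1b, with a log2 change of -0.54 ± 0.25 (adjusted p = 0.321). At Zfp36l2 the groups overlapped in 1 pair of libraries, control 3 at 64.5 CPM and Dyrk1b 3 at 67.6, and the log2 change was -0.34 ± 0.24. All 3 directions held in each of the 14 other fits, which reuse the same libraries. Zfp36l1 is itself 1 of the 8 main peaks chosen above for a lower level. No member passed the adjusted threshold, and Zfp36l3 has no peak in the table.

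Of the genes known for silencing imprinted loci and retroelements, Zfp445, Zfp568 and Zfp809 had a peak, and Zfp57, Zfp708, Zfp932 and Zfp961 have none in the table. The peaks analysed are part of a larger set, so a gene without a row here may have had a peak elsewhere in that set. Zfp445 protects imprinted DNA methylation, and its peak in the last intron read 64.5, 32.8 and 69.9 CPM in controls and 22.6, 24.3 and 35.3 with Dyrk1b. Control 2 was below Dyrk1b 3, and the log2 change was -0.99 ± 0.30 (adjusted p = 0.166). Its second intronic peak, 1.09 kb from the start, had 0.23 ± 0.33. Zfp568, which represses a placental transcript of Igf2, had -0.098 ± 0.29 at its promoter, and Zfp809, a silencer of retroviruses, 0.021 ± 0.27, both with overlapping groups.

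Among factors acting on RNA and ribosomes, 7 of 9 had a peak, with 4 positive and 3 negative values and none at an unadjusted p under 0.05. Of the main peaks of other genes 5.19% were higher and 8.87% lower at that threshold. Zfp622, a factor of ribosome maturation, had -0.34 ± 0.24, and Zfp346, which binds double-stranded RNA, 0.30 ± 0.27. Of 20 promoter and chromatin regulators 15 had a peak, 7 positive and 8 negative, with a median of -0.092. Zfp518b (0.81 ± 0.37) and Zfp827 (-0.60 ± 0.30) were at an unadjusted p under 0.05 and Zfp592 (0.43 ± 0.25) was not, and all of these groups overlapped. Of 9 adipocyte and metabolic regulators 8 had a peak, 6 positive and 2 negative, with a median of 0.11. At an unadjusted p under 0.05, 1 of the 8 was higher and 1 was lower. The lower one was Zfp395, described above, which had the lowest p of the list (-0.74 ± 0.24, groups apart). In this list Zfp30, which acts in adipogenesis, read 22.3, 15.8 and 14.8 CPM in controls and 54.4, 32.0 and 17.7 with Dyrk1b, a log2 change of 0.92 ± 0.40. Its Dyrk1b libraries were far apart, and Dyrk1b 3 lay inside the control range. Zfp516, a factor of brown fat, had 0.40 ± 0.46 at its main peak, and 1.38 ± 0.68 (adjusted p = 0.347) at a second intronic peak of few reads, named after its values were seen.

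The partners of the KRAB pathway were read from a list of silencing cofactors, of which 18 had a peak, 7 with positive and 11 with negative changes and a median of -0.077. None was called. At an unadjusted p under 0.05, 1 of the 18 was higher and 2 were lower, beside 5.19% and 8.87% of the main peaks of all genes that are not Zfp genes. Cbx1 read 51.6, 43.7 and 44.4 CPM in controls and 83.6, 70.6 and 82.2 with Dyrk1b at its 5' UTR, a log2 change of 0.76 ± 0.24 (adjusted p = 0.185) with groups apart. Atf7ip, the partner of Setdb1, read 55.1, 57.1 and 56.5 CPM in intron 1 in controls and 22.6, 45.2 and 20.7 with Dyrk1b, a log2 change of -0.94 ± 0.30 (adjusted p = 0.177), also with groups apart. A second heterochromatin protein gene, Cbx5, had -0.56 ± 0.24 with overlapping groups, and the DNA methyltransferase gene Dnmt3a 0.63 ± 0.33. Cbx3, the third heterochromatin protein gene of the list, has no peak in the table. Trim28 (0.083 ± 0.49) and Setdb1 (-0.12 ± 0.47), named outside the rule as the core of the pathway, overlapped between the groups at 8.07 to 26.5 CPM. The peaks of Setdb1 and Cbx5 lie at promoters. That of Trim28 lies in intron 1, about 19020 bases from the gene start, and that of Atf7ip about 26680 bases from it. The Dnmt3a peak is in the 3' UTR, about 105100 bases from the start. The values of Trim28, Atf7ip and Dnmt3a are therefore not those of the gene start.

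Over all Zfp genes, the 226 tested main peaks had a median log2 change of -0.093, with 96 positive and 130 negative, against -0.051 in the other genes. The median deviation of these peaks from their own mean over the 6 libraries was 0.053, 0.042 and 0.030 in controls 1 to 3 and -0.084, 0.0090 and -0.019 in Dyrk1b 1 to 3. Dyrk1b 1 was the lowest library. The sign of the median depended on the scaling: it was 0.001 with loess offsets and 0.083 with the library totals behind the RPKM values, a scaling that moves the median of all peaks by 0.17.

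By position, promoter and 5' UTR main peaks had a median of -0.098 (58 positive, 82 negative), against -0.091 at other genes, and intronic main peaks -0.059 (31 positive, 40 negative), against -0.011. The 15 other main peaks had -0.24. The classes that make up the first group differed in direction. Of the promoter peaks 16 were positive and 43 negative (72.9%), with a median of -0.16, against -0.11 and 63% negative at other genes. Of the 5' UTR peaks 42 were positive and 39 negative, with a median of 0.073 against -0.068. The latter sign did not hold without control 2 (-0.026), control 3 (-0.041) or Dyrk1b 2 (-0.002), and the promoter median was 0.012 with the library totals behind the RPKM values. Peaks of both classes lay close to the gene start, at a median of 87 and 88 bases.

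Intronic main peaks within 3 kb of the start had a median of -0.14 (13 positive, 25 negative), against -0.060 at other genes, and those farther away 0.025 (18 positive, 15 negative), against 0.014. The near ones lay at a median of 302 bases from the start, and some, such as that of Zfp524, cover it. The contrast of intronic with promoter and 5' UTR peaks is therefore partly between peaks at the start. At an unadjusted p under 0.05, none of the 38 near ones was higher and 5 (13.2%) were lower, against 4.93% and 8.69% of the near main peaks of other genes. Of the 33 far ones tested 3 (9.09%) were higher and 4 (12.1%) lower, against 7.20% and 8.82% in other genes. Counting all tested peaks rather than main peaks, introns had a median of 0.0090 with 68 positive and 67 negative values. These medians were set side by side without a test.

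**Figure D3:**
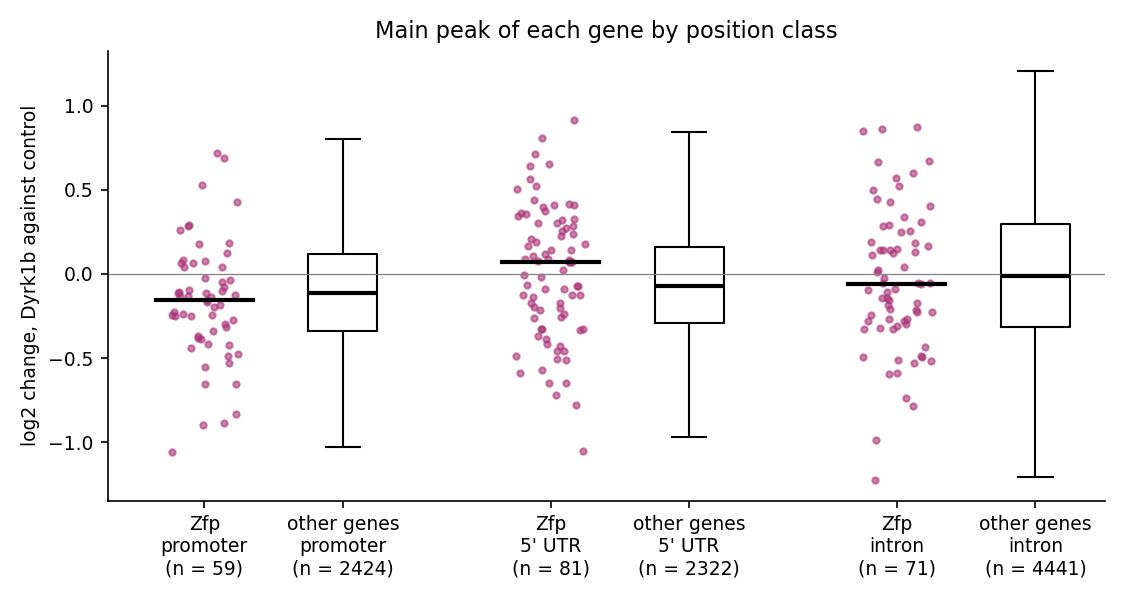
Log2 change (Dyrk1b against control) of the tested main peak of each gene by position class; points are Zfp genes with their median as a black line, and boxes show the other genes (quartiles, whiskers to 1.5 times the interquartile range, farther values not drawn). Zfp medians are -0.16 at promoters, 0.073 at 5' UTRs and -0.059 in introns, against -0.11, -0.068 and -0.011 in other genes.

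In 20 genes both a promoter or 5' UTR peak and an intronic peak were tested, taking the one of each kind with the most reads. The intronic log2 change was above that of the promoter in 11 genes and below it in 9, with a median difference of 0.060. Both changes were negative in 4 genes and positive in 4, while 7 had a negative promoter and a positive intronic value and 5 the reverse. The genes with the largest difference were Zfp444 and Zfp523, chosen here after their values were seen.

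At Zfp444 the intronic peak, 11.5 kb from the start, read 9.38, 7.29 and 10.8 CPM in controls and 18.6, 18.7 and 17.7 with Dyrk1b, a log2 change of 0.995 ± 0.57, while the promoter had -0.90 ± 0.27. Few reads lie behind the intronic peak, 8, 6 and 8 in controls 1 to 3. The log2 level of the intron minus that of the promoter was -2.62, -2.48 and -2.65 in controls and -0.77, -0.84 and -1.003 with Dyrk1b. At Zfp523 the 5' UTR peak had -0.49 ± 0.33 and the intronic peak 0.86 ± 0.30, and the difference of levels was 0, 0 and -1.26 in controls against 1.42, 0.69 and 0.82 with Dyrk1b. In both genes the groups did not overlap, and the two-sided exact permutation test gave p = 0.1, the smallest that 3 against 3 allow, so no gene could pass 0.05. With groups apart the test can give no other value, so it adds nothing for genes chosen by this difference. The second promoter peak of Zfp444, next to the main one, had 0.25 ± 0.41, and its groups overlapped.

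**Figure D4:**
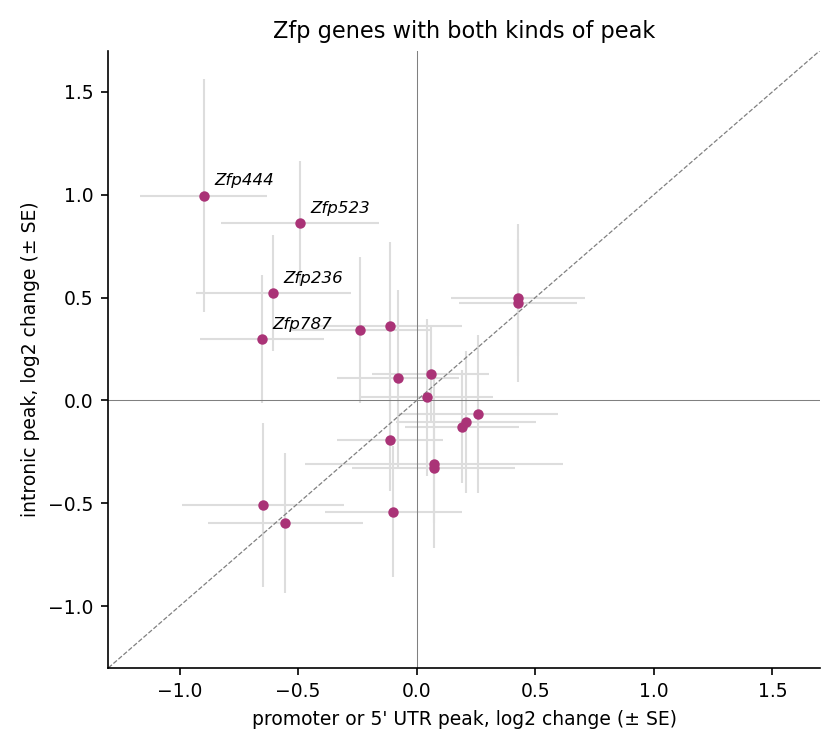
Log2 change of the intronic peak (vertical axis) against that of the promoter or 5' UTR peak (horizontal axis) in the 20 Zfp genes with both; bars are SE and the dashed line marks equal change. Zfp444 (-0.90 and 0.995) and Zfp523 (-0.49 and 0.86) lie farthest above the line.

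Of the 228 genes, 178 had 1 peak, 33 had 2 and 17 had 3 or more. Zfp385b, Zfp608 and Zfp704 had most, with 6 each. The 6 intronic peaks of Zfp608 all lay close to 0, between -0.20 and 0.13, over distances of 3.10 to 100.3 kb from the start. Zfp385b ranged from -0.70 to 0.56 with 3 positive and 3 negative peaks, and Zfp704 from -0.37 to 0.41 with 2 positive and 4 negative, and no peak of these genes was at an unadjusted p under 0.05.

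Some peaks outside the naming rule were picked after their values were seen. Zfp618 had positive changes at all 4 of its intronic peaks, from 0.14 to 1.22, the highest at a peak of 12.9, 7.29 and 9.41 CPM in controls and 15.9, 27.6 and 25.3 with Dyrk1b. Both 5' UTR peaks of Zfp219 were lower, the main one with 90.3, 92.3 and 98.1 CPM in controls against 74.3, 60.6 and 63.7 (log2 change -0.50 ± 0.22), and the second with -0.90 ± 0.31. At Zfp654 the promoter had -0.078 ± 0.26, while a peak in intron 6 of 8, 60.7 kb from the start, read 21.1, 18.2 and 13.4 CPM in controls and 3.98, 3.31 and 8.45 with Dyrk1b (-1.65 ± 0.65, adjusted p = 0.255). In each of these the groups did not overlap, apart from the other peaks of Zfp618 and the promoter of Zfp654. Few reads lie behind the intronic peak of Zfp654, at 3.31 to 8.45 CPM with Dyrk1b. The same holds for the highest change of Zfp618, with 11, 6 and 7 reads in controls 1 to 3.

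A gene was called clustered where the lower deposited coordinate of another Zfp gene with a peak was within 200 kb of its own, whatever the strand, which held for 102 genes in 24 clusters, while 126 were single. Clustered genes had a median log2 change of -0.13 (41 positive, 61 negative) and single genes -0.063 (55 positive, 69 negative). Promoter and 5' UTR peaks made up 73.5% of the clustered main peaks and 51.6% of the single ones. Within that class the medians were -0.125 and -0.072, and within introns -0.113 and -0.056. At an unadjusted p under 0.05, 2 of 102 clustered genes were higher (1.96%) and 14 lower (13.7%), and 5 of 124 tested single genes were higher (4.03%) and 10 lower (8.06%), beside 5.19% and 8.87% of the main peaks of other genes. The medians over all clustered and all single genes moved to 0.039 and 0.088 with the library totals behind the RPKM values. Without Dyrk1b 1 that of clustered genes was -0.061. KRAB genes had a median of -0.080 and other Zfp genes -0.10. Chromosome 7 alone held 63 of the genes, with a median of -0.098 against -0.082 in other genes of that chromosome.

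There were 11 clusters of 5 or more genes, with 67 genes in all, and 8 of these clusters had a negative median. With loess offsets 6 did, and with the library totals behind the RPKM values 5. No cluster of this size had a single sign in all its genes. Genes of a cluster are neighbours and share sequence, so reads may be split among copies, and they are not independent. The largest, of 11 genes from Zfp84 to Zfp382 on chromosome 7 over 353 kb, had a median of -0.026 (0.13 with those totals) and values from -0.49 at Zfp383 to 0.92 at Zfp30. Its member Zfp14 had 0.45 ± 0.27. The cluster of 7 genes from Zfp786 to Zfp746 on chromosome 6 had a median of -0.13 (0.039 with those totals), with Zfp282 at -0.45 ± 0.26, Zfp786 at -0.33 ± 0.29 and Zfp777 at 0.67 ± 0.44.

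Among the clusters of 5 or more genes, the most negative medians were those of Zfp787 to Zfp28 on chromosome 7 (-0.49, 252 kb) and Zfp868 to Zfp866 on chromosome 8 (-0.46, 150 kb), each with 5 genes, of which 4 were negative and 3 were at an unadjusted p under 0.05. In the former these were Zfp444, Zfp78 and Zfp787. The Zfp787 promoter read 70.4, 82.6 and 65.9 CPM in controls and 46.5, 67.3 and 28.4 with Dyrk1b (-0.65 ± 0.26), with Dyrk1b 2 inside the control range. In the latter they were Zfp869, Zfp963 (-0.46 ± 0.23) and Zfp866 (-0.49 ± 0.24), the last pair named after their values were seen. Both clusters were picked for their low medians, so these counts are no separate result. Of all tested Zfp main peaks 10.6% were lower at that threshold. Over all fits the medians lay between -0.55 and -0.25 and between -0.54 and -0.20, the latter without control 1. Zfp871 to Zfp563 on chromosome 17 had a median of -0.44, with Zfp871 at -1.05 ± 0.36 and overlapping groups.

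The highest median among the clusters of 5 or more genes was that of the 6 genes from Zfp180 to Zfp94 on chromosome 7, 0.24, with 4 positive values. It held Zfp93 at -0.89 ± 0.41 beside Zfp108 at 0.71 ± 0.45, and both carry ACTACAA in their promoters, printed above. A promoter peak of Zfp108 next to its main one, with almost as many reads (18.2 against 18.5 on average), had -0.73 ± 0.44, so the sign at this gene depends on the peak read. None of these values passed the adjusted threshold.

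**Figure D5:**
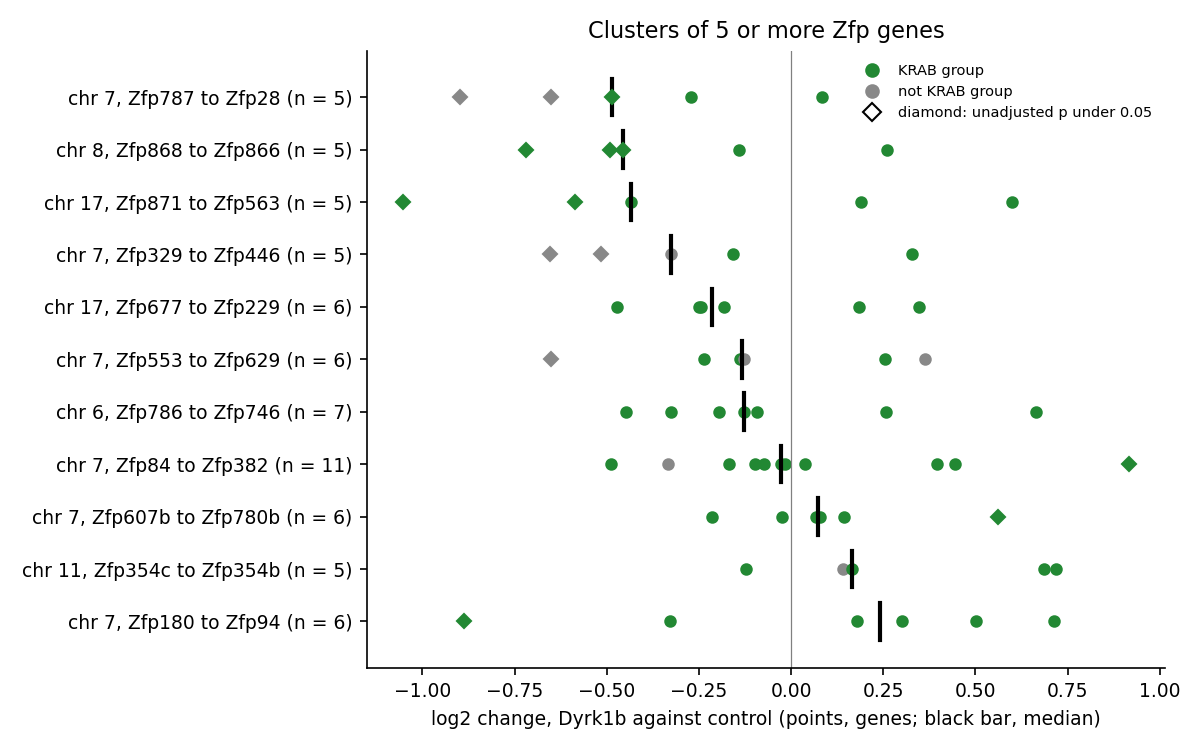
Log2 change of the main peak of each gene in the 11 clusters of 5 or more Zfp genes, ordered by cluster median (black bars); green points are KRAB genes, grey points others, and diamonds have an unadjusted p under 0.05. Medians run from -0.49 (Zfp787 to Zfp28) to 0.24 (Zfp180 to Zfp94), and each cluster has genes on both sides of 0.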

How the data were processed

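The authors deposited whole-number read counts for 22412 peaks in 6 libraries, with RPKM values, a log2 ratio, a p-value and an FDR per peak, per the file headers. The deposited counts hold no value under 1. Peak names run beyond the rows present, so a larger set exists that was not used here. Bowtie2, ChIPseeker, DiffBind and the build mm10 are listed in the submitters' processing notes, yet the table's gene positions differ from GRCm38 (8 of 228 Zfp genes within 2 kb, median shift 159 kb). Peak coordinates are therefore printed as deposited, for an unnamed build, and promoters come from RefSeq GRCm38.p6. The peak caller, duplicate handling and read shift were stated in none of the sources read.

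Differences were tested with edgeR 4.0.16, run in R 4.3.3, on the deposited counts (TMM, filterByExpr, quasi-likelihood test, no covariate), with p adjusted over 22051 peaks. The filter removed 361. DESeq2 1.42.0, limma 3.58.1 (trend on log2 CPM), other scalings, no filter, a replicate block and leaving out each library were alternatives. CPM per kb is CPM divided by peak length. Named genes were, of main peaks with groups apart, the 8 higher and 8 lower with the lowest p, the highest levels per kb, the genes with most peaks, and those with the lowest p in each function list and in the 2 largest clusters. The members and lists were chosen with earlier results of these data known. Same-numbered libraries did not deviate together.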

Additional observations from a re-analysis of the deposited data

How the results depend on the processing

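No Zfp peak was called in any of the 14 alternative fits, where the lowest adjusted p of a Zfp peak was 0.116. Leaving out 1 library at a time gave 7 to 14 higher and 21 to 31 lower peaks at an unadjusted p under 0.05, and the library totals behind the RPKM values gave 6 lower ones. The median of Zfp genes (-0.093) was -0.057 with library size only, 0.001 with loess offsets, 0.083 with the library totals and -0.058 over all tested peaks. Promoter and 5' UTR main peaks had 0.007 with loess offsets and 0.075 with the library totals. Intronic main peaks had -0.013 with loess offsets, 0.088 with the library totals, 0.009 over all tested peaks, 0.017 with the peak nearest the start, 0.025 with the class set by a distance of 3 kb, and -0.101 to -0.045 when 1 library was left out. Clustered genes had -0.045 with loess offsets, 0.039 with the library totals and -0.170 to -0.061 with 1 library left out. Single genes had -0.029 with library size only, 0.021 with loess offsets, 0.088 with the library totals and -0.083 to -0.037 with 1 library left out. Among the named peaks, signs turned at some whose changes were small: Zfp142 (0.004 with loess offsets), Zfp46 (0.072 with loess offsets, 0.003 with the library totals), Zfp385b (0.021 and 0.087 in these, and -0.245 to 0.134 with 1 library left out), Zfp568 (0.093 with the library totals, -0.269 to 0.175 with 1 library left out), Zfp608 (0.088 with the library totals, -0.220 to 0.096 with 1 library left out), Zfp385a (-0.097 to 0.166 with 1 library left out) and Zfp809 (-0.195 to 0.428 with 1 library left out). Of the 11 clusters of 5 or more genes, 5 to 9 had a negative median over these fits. The cause of these shifts was not tested. The labels do not state that replicate numbers pair libraries, and same-numbered libraries had correlations of deviations of -0.0098, -0.014 and 0.0073. With the number as a replicate block, 0 Zfp peaks were called, 10 were higher and 28 lower at an unadjusted p under 0.05, and the median of Zfp genes was -0.092. With 26 to 47 reads in a median peak, differences at weak peaks may not be detectable at this depth.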
